A study of Rattus norvegicus with 6 samples.

Results

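The genes described here encode nucleoporins, the proteins of the nuclear pore, and the importins, transportins and exportins that carry cargo through it. They were chosen by gene symbol, as all genes whose symbol begins with Nup and a digit, Kpna, Kpnb, Ipo, Xpo or Tnpo, and 43 of the 14217 genes measured met the rule. Of these, 22 are nucleoporin genes and 21 are transport receptor genes. The cells were NRK-52E, a rat line with features of kidney tubule epithelium, read on 6 Affymetrix arrays. On 3 of these, called shAMPKα2 arrays here, the cells carried lentiviral shRNA directed at AMPKα2, which is 1 of the alternative catalytic subunits of the kinase AMPK. On the other 3, the shCtrl arrays, they carried the control lentivirus. Both groups had been exposed to TGF-β1 (10 ng/mL, 24 h), a cytokine known for inducing fibrotic and mesenchymal genes, and cells without TGF-β1 were not analysed here.

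The nuclear pore is a ring-shaped channel built from many copies of its nucleoporins. A scaffold of outer and inner rings holds it in the nuclear envelope, and nucleoporins rich in phenylalanine and glycine fill the channel and bar large molecules that travel alone. Importins and exportins bind cargo by its localization signal and cross the channel, and the small GTPase Ran sets the direction by loading exportins and unloading importins inside the nucleus. In tubule cells, as in others, signal carriers such as the SMAD proteins activated by TGF-β pass through these pores.

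All values are log2 expression as the authors deposited them, 1 probe set per gene, and groups were compared with limma, with p-values adjusted by Benjamini-Hochberg over all 14217 genes and a threshold of 0.05. A log2 fold change is the shAMPKα2 mean minus the shCtrl mean. Prkaa2, the gene of the targeted AMPKα2, had 6.64, 6.76 and 6.49 on the shAMPKα2 arrays against 6.83, 6.79 and 6.89 on the shCtrl arrays. Its log2 fold change of -0.21 (SE 0.09, adjusted p = 0.0552) did not pass, though it was -0.27 and passed without shAMPKα2 replicate 2. After rescaling the arrays by quantile normalization or cyclic loess it had -0.05 and -0.15, and neither passed, while its -0.42 after median centring did. The groups are therefore named by their labels. Deposited values were spread more narrowly on the shAMPKα2 arrays (SD over probe sets 1.76 to 1.82) than on the shCtrl arrays (2.17 to 2.19), and 85.1% of all genes passed in either direction. Changes followed the control level, with a median log2 fold change of 0.79 at control levels of 4 to 5 and -0.90 at 9 to 10. Each gene is therefore also set beside genes of like control level, those outside the list within 0.25 log2 units of its shCtrl mean. Among 7 measured markers of tubule epithelium, Krt8 was high (mean 12.24 on the shAMPKα2 and 12.49 on the shCtrl arrays), while the other 6, among them Cdh1 and Epcam, lay at shCtrl levels of 2.97 to 6.57. Krt8 fell and the other 6 rose. All 8 measured proliferation genes fell, Mki67 by 3.73 (SE 0.11, adjusted p = 1.95e-09) among them, and so did 1 of 5 mesenchyme markers, while the other 4 and all markers of endothelium (2) and leukocytes (3) rose. Over all genes 41.5% fell and 43.6% rose. With quantile normalization and again with cyclic loess, the 8 proliferation genes still fell, and the 4 mesenchyme and 3 leukocyte markers still rose. Only 2 of 7 tubule and 1 of 2 endothelium markers rose there, and Krt8 did not pass. The part of these marker genes in the changes described here was not tested.

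Most genes of the pore and its transport receptors were lower on the shAMPKα2 arrays. Of 43, 38 fell, 3 rose and 2 did not pass, with a median log2 fold change of -1.12, beside 0.05 over all genes. Over all genes measured, 41.5% fell and 43.6% rose. At least a 2-fold fall was seen in 23 of the 43, beside 18.6% of all genes. The groups did not overlap, with the shAMPKα2 arrays lower, in 39 of the 43 (42.5% of all genes), and with them higher in 3 (44.5%), so that 87.1% of all genes had groups apart in either direction. The largest falls were those of Nup58, Ipo7 and Nup205, and the genes that rose were Nup62cl, Nup214 and Kpna1. Other probe sets of Nup214 and Kpna1 did not pass as rises. Fewer copies of a transcript per cell and fewer cells with it cannot be told apart in such bulk RNA.

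**Figure D1:**
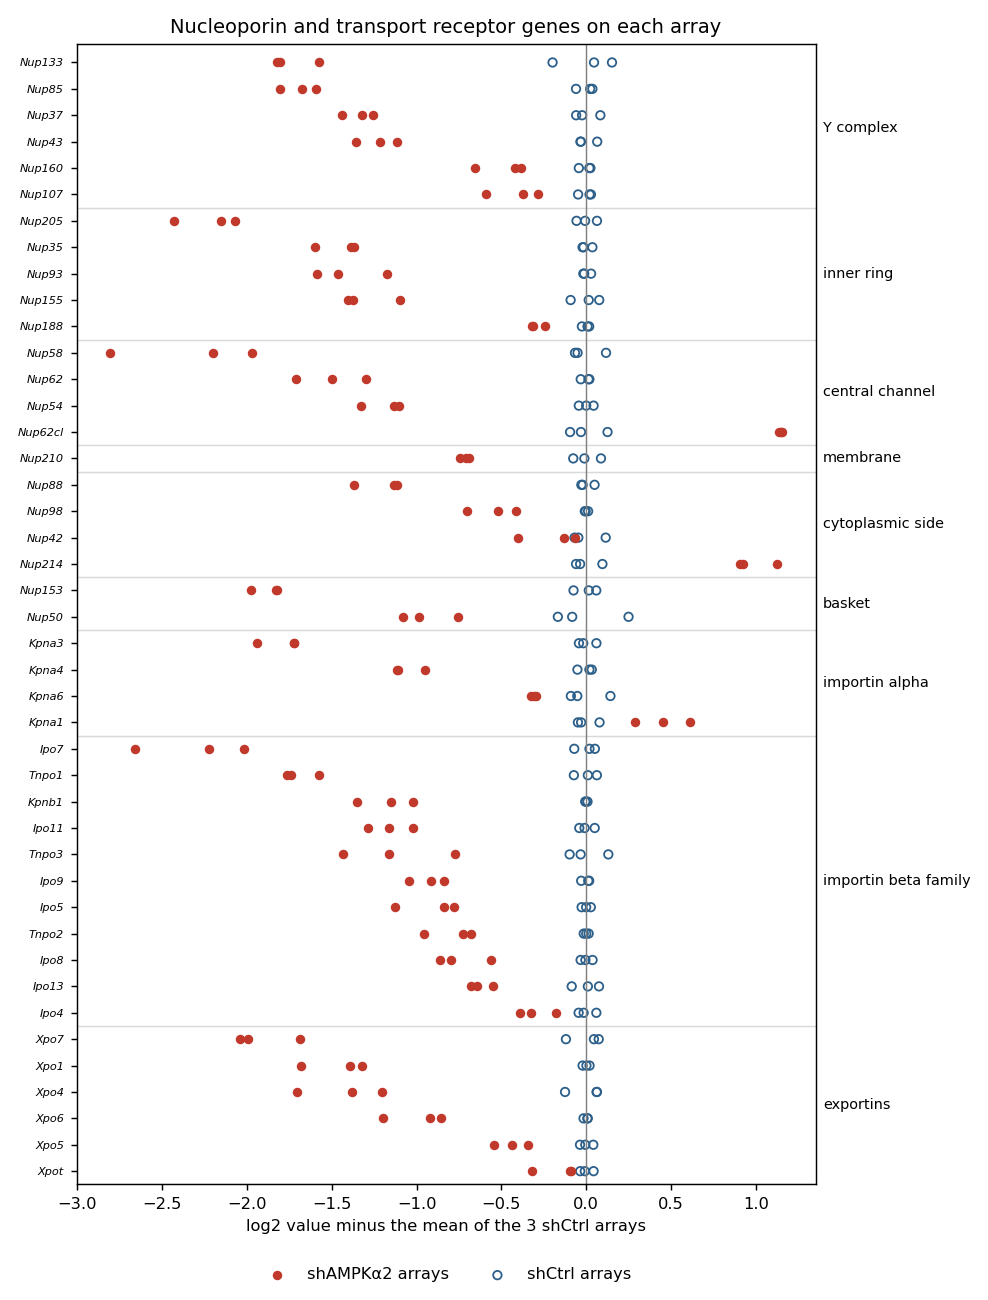
Log2 value on each array minus the mean of the 3 shCtrl arrays (x axis) for each of the 43 genes (rows, grouped by role), with shAMPKα2 arrays as filled red points and shCtrl arrays as open blue points. In 39 rows all red points lie to the left of the blue ones, in Nup62cl, Nup214 and Kpna1 they lie to the right, and in Nup42 they overlap.

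The count of falls is to be read beside the control level, since 40 of the 43 genes had a shCtrl level of at least 7, and at such levels 72.6% of all genes fell. Of those 40, 38 fell. The level of 7 was chosen after the values had been seen. The 3 genes under it, Nup62cl (4.82), Nup42 (6.75) and Nup214 (6.91), are ones that did not pass as falls. Against the median of genes of like control level, 32 of the 43 changes were lower. The median of these differences was -0.34, and it ranged from -1.63 for Nup58 to 1.11 for Nup214. A change below the lower quartile of genes of like level was found for 14 genes, and one above the upper quartile for 5. These comparisons with genes of like level carry no test.

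**Figure D2:**
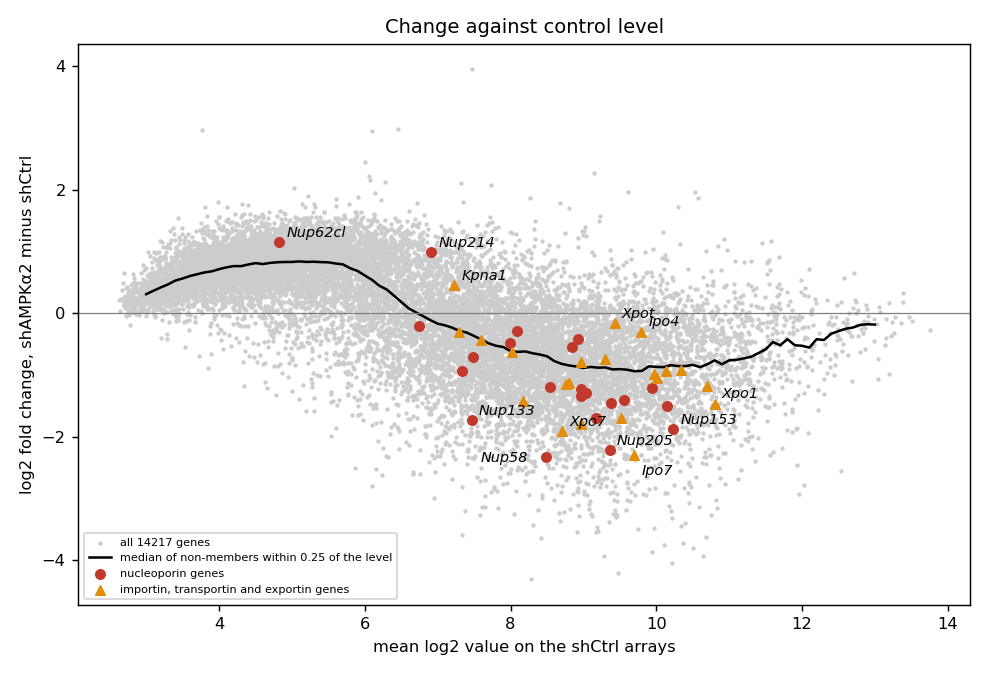
Log2 fold change, shAMPKα2 minus shCtrl (y axis), against the mean log2 value on the shCtrl arrays (x axis), for all genes (grey), nucleoporin genes (red circles) and transport receptor genes (orange triangles). The black line is the median of genes outside the list within 0.25 log2 units, and 32 of the 43 genes lie below the median at their own level.

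Other scalings of the arrays moved the size of the falls and kept most of them. After quantile normalization, and again after cyclic loess, 28 of the 43 genes fell and 7 rose, beside 28.9% and 31.5% of all genes that fell and 43.8% and 40.2% that rose. Their median change was -0.46 and -0.49 there, and -1.34 after median centring, where 40 fell (48.2% of all genes) and 3 rose (35.0%). The median over all genes was 0.16, 0.09 and -0.17 under these scalings. The same 28 genes fell in all 4 scalings, the deposited one included, against 26.4% of all genes and 43.0% of genes with a shCtrl level of at least 7. Nup62cl, Nup214 and Kpna1 rose in all 4 (25.5% of all genes), each read by the probe set of highest mean level. Other probe sets of Nup214 and Kpna1 did not pass as rises in the deposited values, and 1 of Kpna1 passed with -1.25.

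**Figure D3:**
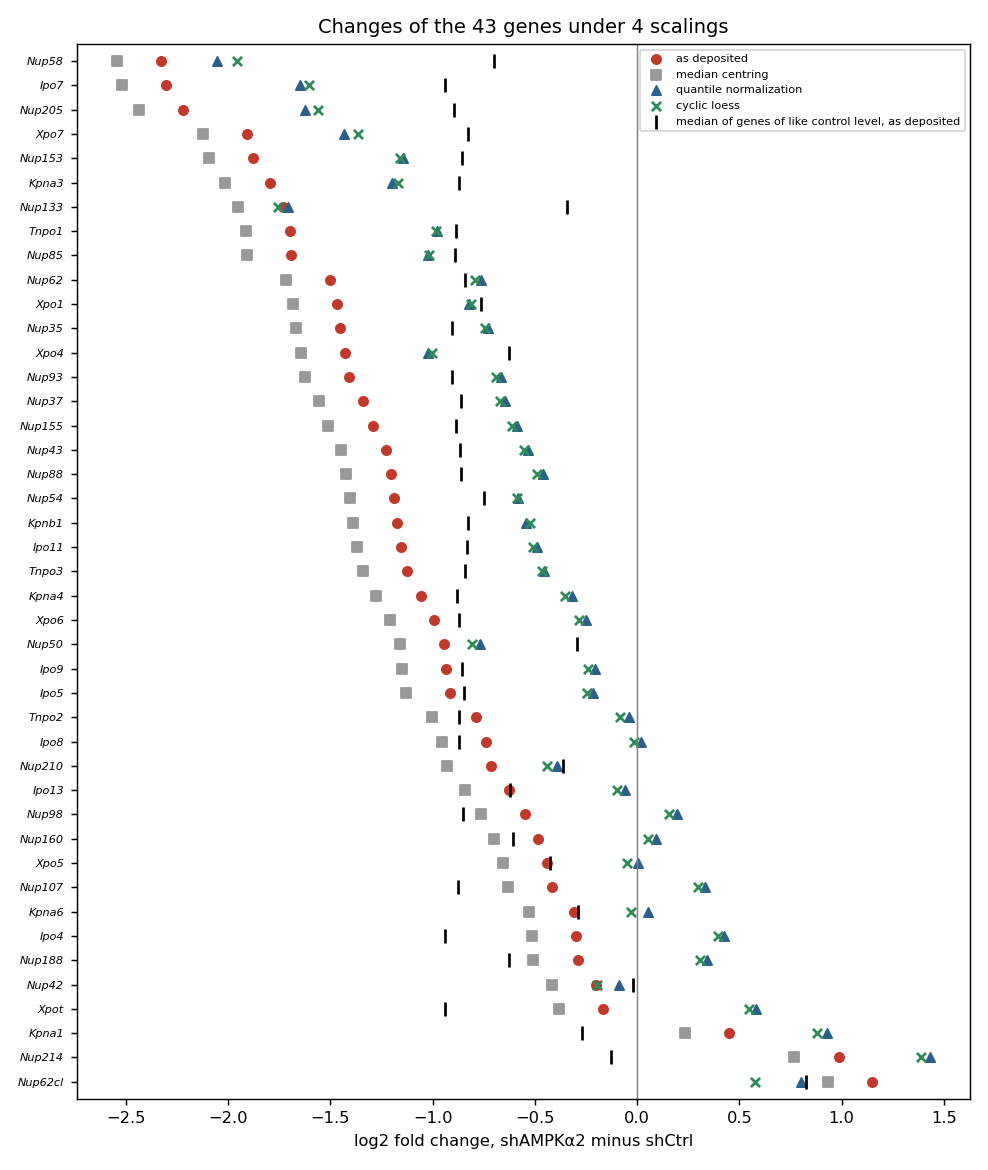
Log2 fold change of each of the 43 genes (rows, ordered by the deposited change) as deposited (red circles), after median centring (grey squares), quantile normalization (blue triangles) and cyclic loess (green crosses), with the deposited median of genes of like control level as a black bar. Quantile normalization and cyclic loess move the changes of highly expressed genes to the right, and Nup58, Ipo7 and Nup205 stay well to the left of 0 under each scaling.

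The start regions of the genes that fell furthest, and of Nup214, which rose, are shown because most of the list moved the same way. Nup62cl rose more (1.15, beside 0.99 for Nup214) and is not shown. RefSeq promoters of build GRCr8 were matched for 37 of the 43 genes, and those of Kpna1, Kpna3, Kpnb1, Nup107, Xpo7 and Xpot were not. Given here, 5′ to 3′ on the strand of the gene, are the 250 bases before the annotated start of the 3 genes with the largest falls and of Nup214, which rose. Their positions are chr15:38583166-38583415, reverse strand for Nup58, chr1:173497222-173497471, forward strand for Ipo7, chr4:64821801-64822050, forward strand for Nup205 and chr3:35652629-35652878, forward strand for Nup214. Capitals mark matches, on either strand, to the motifs CCAAT (bound by NF-Y), CCGGAAG (ETS factors), GGGCGG (Sp and KLF factors), TTTGAA (the CHR element), TTTGGCGC and TTTCCCGC (E2F) and GCATGCGC (NRF1).
Nup58: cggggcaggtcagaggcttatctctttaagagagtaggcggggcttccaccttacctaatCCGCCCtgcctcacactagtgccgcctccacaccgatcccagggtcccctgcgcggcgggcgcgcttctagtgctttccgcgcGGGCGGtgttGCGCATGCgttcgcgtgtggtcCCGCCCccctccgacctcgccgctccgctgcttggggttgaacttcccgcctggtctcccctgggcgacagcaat
Ipo7: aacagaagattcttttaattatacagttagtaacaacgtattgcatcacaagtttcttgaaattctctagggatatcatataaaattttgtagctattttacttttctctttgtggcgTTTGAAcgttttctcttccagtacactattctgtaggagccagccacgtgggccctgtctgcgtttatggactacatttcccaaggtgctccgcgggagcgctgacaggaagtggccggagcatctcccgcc
Nup205: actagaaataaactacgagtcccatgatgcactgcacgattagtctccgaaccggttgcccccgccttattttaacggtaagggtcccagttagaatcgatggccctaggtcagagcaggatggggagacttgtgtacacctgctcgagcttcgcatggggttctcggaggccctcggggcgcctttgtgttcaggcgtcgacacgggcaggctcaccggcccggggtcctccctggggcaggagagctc
Nup214: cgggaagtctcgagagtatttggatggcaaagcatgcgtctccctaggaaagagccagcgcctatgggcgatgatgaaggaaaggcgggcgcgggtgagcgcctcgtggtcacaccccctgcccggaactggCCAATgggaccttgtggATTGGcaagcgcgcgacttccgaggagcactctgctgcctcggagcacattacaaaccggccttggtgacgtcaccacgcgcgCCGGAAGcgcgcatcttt
The Nup58 window holds 3 GC boxes and 1 NRF1 match, that of Ipo7 holds 1 CHR match, that of Nup205 holds no match, and that of Nup214 holds 2 CCAAT boxes and 1 ETS match. No motif searched lies within another. Over the 37 windows, GGGCGG was found in 23 (62.2%), beside 54.2% of the 11700 measured genes with a promoter and 32.4% of all 27457 promoters in the table. CCAAT was found in 17 (45.9%), beside 35.1% and 34.3%, and TTTGAA in 7 (18.9%), beside 10.9% and 16.0%. CCGGAAG occurred in 5 (13.5%), beside 12.9% and 7.74%. An E2F match was found in 3 (8.11%), beside 2.15% and 1.26%, and GCATGCGC also in 3 (8.11%), beside 3.91% and 2.38%. These are matches of letters, given as a description with no test.

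Genes of the outer ring, the Y-shaped scaffold complex on both faces of the pore, fell in 6 of 6 cases, with a median log2 fold change of -1.29. Of all genes with a shCtrl level of at least 7, 72.6% fell. Nup133, which anchors the complex in the ring, had 5.64, 5.89 and 5.66 on the shAMPKα2 arrays against 7.27, 7.62 and 7.51 on the shCtrl arrays. It fell by 1.73 (SE 0.11, adjusted p = 1.55e-07), beside -0.34 among genes of like control level, and it changed by -1.70 with quantile normalization and -1.76 with cyclic loess. Nup85, another component of the complex, had 7.58, 7.50 and 7.37 on the shAMPKα2 arrays against 9.11, 9.20 and 9.21 on the shCtrl arrays and fell by 1.69 (SE 0.09, adjusted p = 3.46e-08). Nup37, a peripheral member, had 7.52, 7.71 and 7.64 on the shAMPKα2 arrays against 8.94, 8.90 and 9.05 on the shCtrl arrays. Its fall of 1.34 (SE 0.09, adjusted p = 1.68e-07) was not shared by its other probe set, which rose by 0.64 at a shCtrl level of 4.21. Nup43 had a log2 fold change of -1.23. In all 6 genes of the outer ring every shAMPKα2 array lay below every shCtrl array, as in 42.5% of all genes. Nup160 and Nup107, further scaffold members, had smaller deposited changes of -0.49 and -0.42, which passed. After quantile normalization they had 0.09, which did not pass, and 0.33, which passed as a rise, and after cyclic loess 0.05 and 0.30, with the same calls.

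The inner ring links the outer rings to the membrane and the channel, and its 5 measured genes fell, with a median of -1.41. This count too stands beside the 72.6% of all genes with a shCtrl level of at least 7 that fell. Nup205, a large scaffold protein, had 7.21, 7.29 and 6.93 on the shAMPKα2 arrays against 9.42, 9.35 and 9.30 on the shCtrl arrays, and its fall of 2.22 (SE 0.10, adjusted p = 1.81e-08) was, among the 22 nucleoporin genes of the list, the largest after that of Nup58. Nup35, which also binds the membrane, had 7.99, 8.01 and 7.78 on the shAMPKα2 arrays against 9.36, 9.41 and 9.36 on the shCtrl arrays. It fell by 1.45 (SE 0.09, adjusted p = 1.15e-07). Nup93, which holds the channel proteins in place, had 8.38, 7.96 and 8.09 on the shAMPKα2 arrays against 9.53, 9.54 and 9.58 on the shCtrl arrays, and fell by 1.41 (SE 0.11, adjusted p = 5.42e-07). In all 5 genes of the inner ring every shAMPKα2 array lay below every shCtrl array (42.5% of all genes). Nup155 had -1.29. Nup188, the close relative of Nup205, had a smaller change: its fall of 0.29 (SE 0.08, adjusted p = 0.00484) compares with -0.63 among genes of like control level, and it rose by 0.34 with quantile normalization and 0.31 with cyclic loess.

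Of 4 genes grouped with the central channel, the 3 whose proteins form the barrier of phenylalanine-glycine repeats (Nup58, Nup62 and Nup54) fell by more than 1 log2 unit each, and the other rose. Over all genes, 18.6% fell at least 2-fold and 43.6% rose, and 72.6% of those with a shCtrl level of at least 7 fell. Nup58 had 5.67, 6.51 and 6.28 on the shAMPKα2 arrays against 8.43, 8.60 and 8.41 on the shCtrl arrays. Its fall of 2.33 (SE 0.18, adjusted p = 4.88e-07) came with a wide spread on the shAMPKα2 arrays (SD 0.43 on the 3 arrays), and compares with -0.70 among genes of like control level. Other probe sets of Nup58 had -1.34, -0.41 and 0.15, the last of which did not pass, at shCtrl levels of 6.80, 4.36 and 4.27. Nup62, the partner that gives the channel complex its name, had 8.84, 8.64 and 8.43 on the shAMPKα2 arrays against 10.15, 10.11 and 10.16 on the shCtrl arrays and fell by 1.50 (SE 0.11, adjusted p = 3.04e-07). Nup54 had 7.41, 7.44 and 7.22 on the shAMPKα2 arrays against 8.50, 8.55 and 8.59 on the shCtrl arrays, and fell by 1.19 (SE 0.09, adjusted p = 4.46e-07). Genes of like control level had -0.84 for Nup62 and -0.75 for Nup54. Nup62cl, a gene named for its likeness to the C-terminal part of Nup62, went the other way with 5.98, 5.96 and 5.97 on the shAMPKα2 arrays against 4.73, 4.79 and 4.95 on the shCtrl arrays. It rose by 1.15 (SE 0.09, adjusted p = 4.66e-07) from a low control level at which genes had a median change of 0.82.

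Nup210, which encodes a nucleoporin that spans the nuclear membrane, had 6.77, 6.74 and 6.79 on the shAMPKα2 arrays against 7.47, 7.40 and 7.57 on the shCtrl arrays, and fell by 0.71 (SE 0.08, adjusted p = 1.1e-05). On the nuclear side, both genes of the basket fell, as did 72.6% of all genes with a shCtrl level of at least 7. Nup153, which docks importins and exportins at the basket, had 8.25, 8.41 and 8.40 on the shAMPKα2 arrays against 10.29, 10.16 and 10.25 on the shCtrl arrays. It fell by 1.88 (SE 0.09, adjusted p = 1.56e-08), beside -0.86 among genes of like control level, and had -1.14 under quantile normalization and -1.16 under cyclic loess. Nup50, which helps release importin α from its cargo, had 6.58, 6.35 and 6.26 on the shAMPKα2 arrays against 7.17, 7.26 and 7.59 on the shCtrl arrays and fell by 0.94 (SE 0.12, adjusted p = 3.35e-05).

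On the cytoplasmic side the 4 genes did not share a direction. Nup88 had 8.82, 8.83 and 8.57 on the shAMPKα2 arrays against 9.995, 9.92 and 9.93 on the shCtrl arrays, and fell by 1.21 (SE 0.09, adjusted p = 5.59e-07). Nup214, which forms a complex with Nup88 and binds the exportin encoded by Xpo1, had 7.82, 7.83 and 8.03 on the shAMPKα2 arrays against 6.85, 7.003 and 6.87 on the shCtrl arrays. It rose by 0.99 (SE 0.09, adjusted p = 2.3e-06) where genes of like control level had -0.13, and it rose by 1.43 with quantile normalization and 1.39 with cyclic loess. The rise of Nup214 was that of 1 probe set, since its other 2 had -0.28 and 0.11, neither of which passed. Nup98, a mobile nucleoporin whose transcript also encodes an outer ring protein, had 8.14, 8.42 and 8.32 on the shAMPKα2 arrays against 8.84, 8.85 and 8.83 on the shCtrl arrays. Its fall of 0.55 (SE 0.09, adjusted p = 0.000214) was smaller than that of its other probe set, -1.79 at a shCtrl level of 6.85, and with quantile normalization and cyclic loess its changes of 0.20 and 0.16 did not pass. Nup42, which works with Gle1 in mRNA export, had -0.20 (adjusted p = 0.0963), with groups that overlapped. Its -0.42 after median centring passed.

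Importin α proteins are adaptors that bind the classical nuclear localization signal and hand the cargo to importin β. Of 4 measured genes 3 fell and 1 rose, while 72.6% of all genes with a shCtrl level of at least 7 fell. Kpna3 had 7.24, 7.24 and 7.03 on the shAMPKα2 arrays against 8.93, 8.95 and 9.03 on the shCtrl arrays, and fell by 1.80 (SE 0.09, adjusted p = 2.91e-08). Kpna4, its closest relative, had 9.07, 8.90 and 8.91 on the shAMPKα2 arrays against 9.96, 10.04 and 10.05 on the shCtrl arrays and fell by 1.06 (SE 0.08, adjusted p = 7.29e-07). In the 3 genes that fell, Kpna3, Kpna4 and Kpna6, every shAMPKα2 array lay below every shCtrl array (42.5% of all genes). Kpna6 had 6.99, 6.97 and 7.00013 on the shAMPKα2 arrays against 7.25, 7.21 and 7.44 on the shCtrl arrays. Its fall of 0.31 (SE 0.09, adjusted p = 0.00685) was not seen in its other probe set, which rose by 0.81 at a shCtrl level of 5.15, and with quantile normalization it had 0.05, which did not pass. Kpna1 had 7.68, 7.84 and 7.52 on the shAMPKα2 arrays against 7.31, 7.20 and 7.18 on the shCtrl arrays, with every shAMPKα2 array above every shCtrl array. Its rise of 0.45 (SE 0.10, adjusted p = 0.00138) likewise depended on the probe set, as the other 2 had -1.25, which passed, and -0.02, which did not. The direction of Kpna1 and Kpna6 is therefore uncertain. Kpna2 shares its probe set with a second gene in the platform annotation, so it did not meet the rule and no value is given.

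The importin β family, carriers that bind cargo and Ran directly, fell in 11 of 11 genes, with a median of -0.93. At shCtrl levels of at least 7, 72.6% of all genes fell. The median shCtrl level of the family was 9.52, and all genes at levels of 9 to 10 had a median change of -0.90. The family's median change is therefore no result particular to it. Ipo7, which imports ribosomal proteins and histones, had 7.68, 7.04 and 7.47 on the shAMPKα2 arrays against 9.63, 9.75 and 9.72 on the shCtrl arrays. Its fall of 2.30 (SE 0.14, adjusted p = 1.14e-07) compares with -0.94 among genes of like control level. Tnpo1, the carrier of many RNA-binding proteins, had 7.94, 7.78 and 7.75 on the shAMPKα2 arrays against 9.53, 9.45 and 9.58 on the shCtrl arrays, and fell by 1.70 (SE 0.09, adjusted p = 3.59e-08). Its other 2 probe sets passed as well, with -1.22 and -0.97. Kpnb1, which encodes importin β itself, had 9.67, 9.54 and 9.34 on the shAMPKα2 arrays against 10.69, 10.69 and 10.70 on the shCtrl arrays. It fell by 1.17 (SE 0.10, adjusted p = 8.89e-07), its other probe set had -1.28, and genes of like control level had -0.83. The deposited changes of the other 8 genes ran from -1.16 for Ipo11 to -0.30 for Ipo4. Ipo9, which carries core histones, and Ipo5 had -0.93 and -0.91, close to the -0.86 and -0.84 of genes of like level. Tnpo3, which imports splicing factors of the SR family, had -1.12. Of the 11 genes, 7 fell in all 4 scalings, beside 43.0% of all genes with a shCtrl level of at least 7. Tnpo2, Ipo8 and Ipo13 did not pass after quantile normalization or cyclic loess, and Ipo4 rose there by 0.42 and 0.39. The other probe set of Ipo8, a close relative of Ipo7, had -1.94, and the one used had -0.74.

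Of 6 exportin genes 5 fell, and 4 of them fell in all 4 scalings. Among all genes with a shCtrl level of at least 7, 72.6% fell and 43.0% fell in all 4 scalings. Xpo1, the exportin for proteins with leucine-rich export signals, had 9.48, 9.41 and 9.12 on the shAMPKα2 arrays against 10.81, 10.82 and 10.78 on the shCtrl arrays. It fell by 1.47 (SE 0.10, adjusted p = 2.74e-07), its other probe set had -2.08, and genes of like control level had -0.76. Xpo7, an exportin with broad cargo, had 7.03, 6.72 and 6.67 on the shAMPKα2 arrays against 8.79, 8.76 and 8.59 on the shCtrl arrays, and fell by 1.91 (SE 0.11, adjusted p = 6.99e-08). Its other probe sets, at shCtrl levels of 6.28 and 4.14, had -0.45 and 0.32, both of which passed. Xpo4, which exports the translation factor eIF5A, had 6.79, 6.96 and 6.46 on the shAMPKα2 arrays against 8.04, 8.23 and 8.23 on the shCtrl arrays, and fell by 1.43 (SE 0.13, adjusted p = 1.43e-06). In all 6 exportin genes every shAMPKα2 array lay below every shCtrl array (42.5% of all genes). Other probe sets of Xpo4 had -0.60, which passed, and 0.28, which did not. Xpo6, the exportin for actin, had -0.99, and Xpo5, which exports microRNA precursors, had -0.44, beside -0.87 and -0.42 among genes of like control level. The change of Xpo5 did not pass under either quantile normalization or cyclic loess. Xpot, which exports transfer RNA, had a change of -0.17 (SE 0.09, adjusted p = 0.104), which did not pass, although the shAMPKα2 arrays all lay lower. It rose by 0.58 with quantile normalization and 0.55 with cyclic loess, while its -0.38 after median centring passed as a fall.

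Probe sets and arrays set limits on these values. Of 67 probe sets of the 43 genes, 52 fell, 7 rose and 8 did not pass, and of the 16 genes with more than 1 probe set, 4 (Kpna1, Kpna6, Nup37 and Xpo7) had both a rise and a fall among theirs. The median SD of the 43 genes was 0.14 on the shAMPKα2 arrays and 0.05 on the shCtrl arrays, and 28 of the 43 had their lowest value on shAMPKα2 replicate 3. Without that array the median change of the list was -1.03, and 38 genes fell. No share over all probe sets or all genes stands beside the probe set counts or the count of lowest values. They are therefore not read as particular to the list.

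Other genes of nuclear transport were read from a list of 39 partners of the pore and its carriers. Of these, 34 were measured, and 26 fell, 2 rose and 6 did not pass, with a median log2 fold change of -0.80. Over all genes 41.5% fell and 43.6% rose, and 72.6% fell among those with a shCtrl level of at least 7. The median shCtrl level of the partners was 9.01, and all genes with shCtrl levels of 9 to 10 had a median change of -0.90, so the partners' count is no result particular to them. Ndc1, a membrane nucleoporin that anchors the pore, had 6.88, 6.71 and 6.86 on the shAMPKα2 arrays against 9.22, 9.33 and 9.32 on the shCtrl arrays. Its fall of 2.47 (SE 0.09, adjusted p = 3.43e-09) was the largest of the 34 partners. Tpr, the filament protein of the basket, had 8.58, 8.27 and 8.05 on the shAMPKα2 arrays against 9.82, 9.83 and 9.75 on the shCtrl arrays, and fell by 1.50 (SE 0.12, adjusted p = 8.6e-07). Ranbp2, the large protein of the cytoplasmic filaments, had 8.15, 7.99 and 7.79 on the shAMPKα2 arrays against 8.94, 8.82 and 8.85 on the shCtrl arrays. It fell by 0.90 (SE 0.10, adjusted p = 1.04e-05), while its -0.19 with quantile normalization did not pass and its -0.21 with cyclic loess did. Sec13, shared by the outer ring and by vesicle coats, had 11.51, 11.60 and 11.34 on the shAMPKα2 arrays against 11.21, 11.19 and 11.18 on the shCtrl arrays. Its rise of 0.29 (SE 0.09, adjusted p = 0.0117) compares with 0.07 after median centring, which did not pass, and with 0.68 with quantile normalization and 0.79 with cyclic loess, which both passed.

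Of 9 measured genes of the Ran cycle 7 fell, 1 rose and 1 did not pass. Ran itself had 12.39, 12.36 and 12.26 on the shAMPKα2 arrays against 12.63, 12.66 and 12.64 on the shCtrl arrays, the shAMPKα2 arrays all lower. It fell by 0.31 (SE 0.08, adjusted p = 0.00377), and its -0.14 with quantile normalization and 0.02 with cyclic loess did not pass. Rcc1, the exchange factor that charges Ran in the nucleus, had 7.89, 7.97 and 8.25 on the shAMPKα2 arrays against 8.08, 8.09 and 8.14 on the shCtrl arrays. Its change of -0.07 (SE 0.10, adjusted p = 0.555) did not pass, and the groups overlapped. The change was -0.18 without shAMPKα2 replicate 3 and -0.28 after median centring, and both passed. Rcc1 rose by 0.60 with quantile normalization and 0.56 with cyclic loess. Cse1l, the exportin that returns importin α to the cytoplasm, had 8.65, 8.58 and 8.52 on the shAMPKα2 arrays against 10.54, 10.52 and 10.56 on the shCtrl arrays. It fell by 1.96 (SE 0.08, adjusted p = 8.08e-09), and changed by -1.29 with quantile normalization and -1.26 with cyclic loess. Rangrf, a Ran-binding protein gene, had 6.44, 6.57 and 6.30 on the shAMPKα2 arrays against 6.002, 6.26 and 6.22 on the shCtrl arrays. It rose by 0.28 (SE 0.10, adjusted p = 0.0275), and did not pass in any of the other 3 scalings. Among genes of mRNA export, 10 of 13 fell and 0 rose. This count and that of the Ran cycle lie near the 72.6% of all genes with a shCtrl level of at least 7 that fell. Neither is a result particular to these genes. Thoc3, a member of the complex that couples transcription to export, had 7.24, 7.45 and 6.86 on the shAMPKα2 arrays against 9.14, 9.18 and 9.23 on the shCtrl arrays, and fell by 2.00 (SE 0.13, adjusted p = 1.84e-07). For the partners only the probe set of highest mean level is given, although Thoc3 and Tpr have 3 each and Ranbp2 has 4. After quantile normalization 13 of the 34 partners fell and 6 rose, and after cyclic loess 18 fell and 6 rose. Over all genes, 28.9% and 31.5% fell and 43.8% and 40.2% rose with these scalings. None of the partners rose in all 4 scalings and 13 fell in all 4, beside 26.4% of all genes and 43.0% of those with a shCtrl level of at least 7 that fell in all 4.

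**Figure D4:**
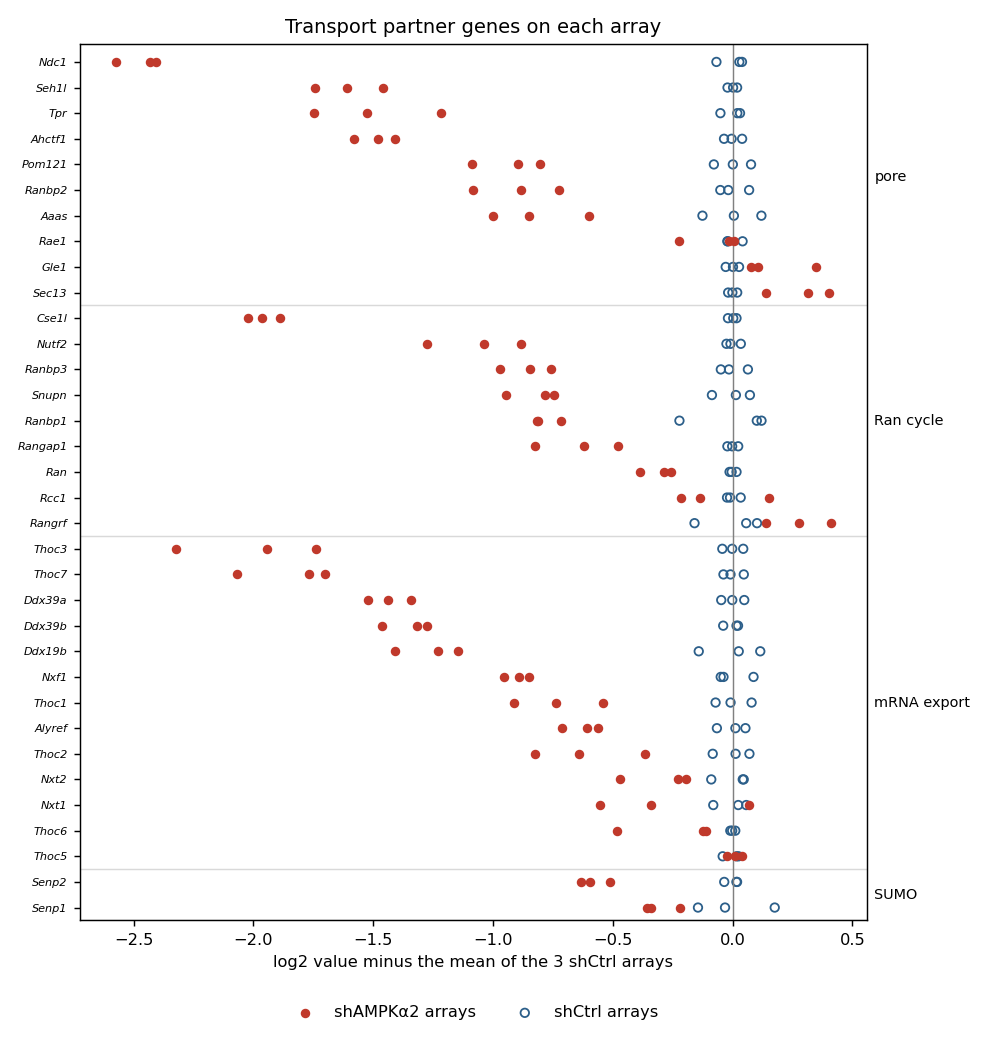
Log2 value on each array minus the mean of the 3 shCtrl arrays (x axis) for the 34 measured partner genes (rows, grouped by role), with shAMPKα2 arrays as filled red points and shCtrl arrays as open blue points. Ndc1, Thoc3 and Cse1l lie furthest to the left. The red points of Sec13, Rangrf and Gle1 lie to the right of the blue ones, though Gle1 did not pass.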

How the data were processed

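The authors deposited log2 expression values, 1 per probe set and array, for 3 shAMPKα2 and 3 shCtrl arrays. Per the labels' protocols, 10 µg of Trizol-extracted total RNA per sample went into one-cycle Affymetrix labelling with biotin. How background, probe summary and normalization were handled is not stated in the labels or file headers. Of 31099 probe sets, 57 array controls were left out, and 20826 of the other 31042 had 1 platform gene symbol. Each of 14217 genes was read by 1 probe set, that of highest mean level on the 6 arrays. All 43 genes of the list matched RefSeq (GRCr8) with 0 symbols changed. The comparison used lmFit and eBayes of limma 3.58.1 under R 4.3.3 (2-sided, no filter and no covariate), and the steps were tested on simulated data. The labels call the arrays biological replicates, and p-values measure the spread between these arrays only. The number of arrays limits the precision, and exact permutation of 3 against 3 arrays gives no 2-sided p below 0.1. Genes with per-array values are, per role, up to 3 that fell and 2 that rose with the largest change, and among the partners up to 3 of each. Those with probe sets of opposite direction and a few fixed names (Prkaa2, Kpnb1, Xpo1, Ran, Rcc1, Cse1l, Tpr and Ranbp2) were added. The list, the partner list and the naming rule were chosen with earlier results of these data known. Partner symbols Nupl1 and Nupl2 are older names of Nup58 and Nup42. Alternatives were other scalings, probe set rules, filters, a trended fit, a stricter threshold, a replicate block and leaving out each array.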

Additional observations from a re-analysis of the deposited data

How the results depend on the processing

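The counts of 41 genes changed, 38 lower and 3 higher in the list were the same with an intensity trend and robust variance, without the lowest 25% of genes, at a threshold of 0.01, with probe sets averaged or the most variable one taken (with other genes rising, below), with the replicate number as a block (replicate block, 38 lower), and without each array in turn. After quantile normalization and after cyclic loess 7 genes of the list were higher, and after quantile normalization 13 partner genes were lower. The median of the list was -0.46 after quantile normalization, -0.49 after cyclic loess, -1.34 after median centring, -0.99 with the mean of probe sets, -1.21 with the most variable probe set and -1.16 to -1.03 without single arrays. Its median difference from genes of like level was -0.48 with the level taken over all 6 arrays. The median of the cytoplasmic side turned to 0.0546 after quantile normalization. Signs turned after quantile normalization for Nup160 (0.0916), Nup107 (0.33), Nup188 (0.34), Nup98 (0.20), Kpna6 (0.0542), Ipo8 (0.0181), Ipo4 (0.42), Xpo5 (0.00326), Xpot (0.58) and Rcc1 (0.60). They turned after cyclic loess for Nup160 (0.0541), Nup107 (0.30), Nup188 (0.31), Nup98 (0.16), Ipo4 (0.39), Xpot (0.55), Ran (0.0165) and Rcc1 (0.56). Nup42 (-0.42), Xpot (-0.38) and Rcc1 (-0.28) passed as falls after median centring. Kpna6 and Kpna1 turned to 0.25 and -0.27 with the mean of probe sets and to 0.81 and -1.25 with the most variable one, and Rcc1 ran from -0.18 without shAMPKα2 replicate 3, where it passed, to 0.00847 without shAMPKα2 replicate 1. Prkaa2 passed after median centring (-0.42) and without shAMPKα2 replicate 2 (-0.27). It had 1 probe set, and its unchanged -0.21 also passed with the mean of probe sets and without the lowest 25% of genes (with 3317 of all genes higher there). Prkaa2 did not pass after quantile normalization (-0.05) or cyclic loess (-0.15), and had -0.27 to -0.14 without single arrays. The causes were not tested. Replicate numbers did not pair the arrays, as deviations of same-numbered arrays correlated at -0.02, 0.01 and -0.10. The files give no signal over background.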
